A study of Mus musculus with 36 samples.

Results

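Bdh1, Bdh2, Oxct1, Acat1 and Aacs, 5 enzymes that make, interconvert or use ketone bodies, were followed across 4 primary mouse cell types exposed to butyrate or to β-hydroxybutyrate (βOHB). They were picked by symbol, 5 of the 54347 genes in the table, and each had its own row. All 5 had a depth-scaled count (CPM) over 1 in 6 or more of the 36 libraries and so were among the 15340 genes tested. The study asked how far βOHB, a ketone body, regulates genes and so acts as a signaling molecule. Its comparison was butyrate, a known histone deacetylase inhibitor and the short-chain fatty acid that has the same carbon chain without the hydroxyl group. Adipocytes, macrophages, skeletal myotubes and hepatocytes of male C57Bl/6 mice each received vehicle (PBS), 5 mM bOHB as the sodium salt of its (R) form, or 5 mM butyric acid sodium salt for 6 h, with 3 libraries in each of the 12 groups. The source names of the butyrate samples put the abbreviation bOHB beside butyric acid, so groups were taken from the titles, with which the treatment tags matched. No group carried a genetic change, and the age of the mice was not given in the sources used here. The adipocytes were differentiated in culture from the stromal vascular fraction of inguinal fat pooled from several mice, with rosiglitazone in the induction medium. The macrophages were grown from bone marrow in L929-conditioned medium, the myotubes were fused from hindlimb myoblasts, and the hepatocytes were plated after collagenase perfusion of C57BL/6NHsd livers. Adipocytes and macrophages were treated in serum-containing DMEM, myotubes in differentiation medium and hepatocytes in Williams E medium, so effects of cell type and of medium cannot be told apart between those sets. Nothing in the labels says whether the 3 libraries of a group came from separate mice or from parallel wells, so the p-values measure the spread between these libraries.

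Ketone bodies are made in liver mitochondria from the acetyl-CoA of fatty acid oxidation and are burned in other tissues when glucose is scarce. The mitochondrial dehydrogenase encoded by Bdh1 converts acetoacetate and βOHB into each other with NADH. In the tissues that burn them, Oxct1 moves CoA from succinyl-CoA to acetoacetate, and Acat1, the mitochondrial acetoacetyl-CoA thiolase, splits the product into acetyl-CoA. Oxct1 is the step that liver is known to lack for burning its own ketone bodies. Aacs activates acetoacetate in the cytosol for sterol and fatty acid synthesis, and Bdh2 is a cytosolic dehydrogenase that has also been linked to a mammalian siderophore and to iron handling.

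The genes lie on different chromosomes of GRCm38 in the GENCODE M21 annotation: Bdh1 at chr16:31422280-31458901, Bdh2 at chr3:135281221-135304426, Oxct1 at chr15:4026383-4155344 and Aacs at chr5:125475814-125517410 on the plus strand, and Acat1 at chr9:53580522-53610382 on the minus strand. RefSeq promoter windows of the same build matched 4 of the 5 genes, with 2 windows for Bdh1 and none for Acat1. Bdh1 is shown because it had the largest single response. Oxct1 is shown because its control levels ran opposite to those of Bdh1 between hepatocytes and the other cells. Bdh2 is shown because it is the cytosolic dehydrogenase and was not called under either compound. The sequences are plus strand, 5′ to 3′, end before the first annotated exon inside the 250 bases upstream of the start, and carry capitals only where a searched motif matched.
Bdh1, outer start, chr16:31422047-31422279: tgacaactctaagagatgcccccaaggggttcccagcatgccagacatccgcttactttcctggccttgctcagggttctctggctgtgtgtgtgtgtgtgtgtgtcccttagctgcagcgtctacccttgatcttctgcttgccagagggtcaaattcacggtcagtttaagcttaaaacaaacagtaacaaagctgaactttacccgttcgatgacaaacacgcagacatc
Bdh1, inner start, chr16:31428503-31428747: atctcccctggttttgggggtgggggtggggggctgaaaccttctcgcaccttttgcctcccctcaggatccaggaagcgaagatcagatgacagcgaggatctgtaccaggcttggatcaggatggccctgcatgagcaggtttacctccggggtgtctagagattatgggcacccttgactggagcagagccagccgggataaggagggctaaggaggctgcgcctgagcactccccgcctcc
Oxct1, chr15:4026178-4026382: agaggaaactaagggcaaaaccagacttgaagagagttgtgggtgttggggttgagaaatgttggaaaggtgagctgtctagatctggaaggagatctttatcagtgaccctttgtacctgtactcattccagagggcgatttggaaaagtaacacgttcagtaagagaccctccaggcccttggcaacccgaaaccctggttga
Bdh2, chr3:135280971-135281220: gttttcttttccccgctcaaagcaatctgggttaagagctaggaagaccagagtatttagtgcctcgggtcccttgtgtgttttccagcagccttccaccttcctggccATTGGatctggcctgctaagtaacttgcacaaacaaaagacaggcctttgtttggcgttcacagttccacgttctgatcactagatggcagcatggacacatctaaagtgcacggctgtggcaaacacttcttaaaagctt
The inner Bdh1 window lies within the span of the gene model that begins at the outer start. The motifs searched on both strands were the GC box (GGGCGG, in 32.7% of all 32851 windows), the CCAAT box (CCAAT, 33.8%), the E-box (CACGTG, 6.02%), the sterol element (TCACNCCAC, 1.05%) and the DR1 element (0.0335%). The CCAAT box on the minus strand of Bdh2 was the only match in the 5 windows. GC content over the 250 bases was 49.6% and 60.8% in the outer and inner Bdh1 windows, 52.0% for Oxct1, 48.0% for Bdh2 and 62.4% for Aacs, against a median of 52.4% over all windows. Aacs had 22 CpG dinucleotides, while the other windows had 5 to 9 and the median window 6. The table counts whole genes and does not say which Bdh1 start was used. Antisense genes overlap Bdh1 (Gm15743, 0 to 18 counts a library) and Oxct1 (BC037032, 0 to 142 counts), and without a stated strand setting their reads and those of the enzymes cannot be told apart.

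Library totals ran from 18366289 to 23221473 estimated counts. The 8 hepatocyte, 8 macrophage, 8 myotube and 6 adipocyte marker genes summed to 45900 to 49300, 18100 to 18300, 25900 to 31800 and 8590 to 9310 CPM in the controls of their own cell type. Hepatocyte markers were also read in myotubes after treatment: their sum, 0.000832 to 0.00314% of the hepatocyte control level in the 3 myotube controls, was 0.0843, 1.52 and 0.346% in the 3 butyrate libraries and 0.0624% in βOHB library 3. Albumin alone had 578, 10700 and 2130 counts in those butyrate libraries against 0, 1 and 1 in the controls. Myotube butyrate library 3 stood apart from its group, with a chi-square per gene of 42.4 and 37.5 against libraries 2 and 1, which gave 8.76 between them, and 2.55 to 25.9 between libraries of the other groups. Without it the log2 butyrate effects in myotubes were 3.25 for Bdh1 (adjusted p = 1.13e-17), 0.31 for Oxct1 (0.0006815) and 0.27 for Acat1 (0.003281), all still called, and 0.03 for Bdh2 (0.9647) and -0.19 for Aacs (0.2538), not called. Values that this touches are given below beside each result. In bulk RNA of this kind, fewer cells of a type and less RNA per cell cannot be told apart.

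Bdh1 was the most responsive of the 5 enzymes in adipocytes, macrophages and myotubes. In hepatocytes Acat1 moved more than Bdh1 under butyrate (log2 0.87 against -0.53). The Bdh1 message rose under butyrate in adipocytes, macrophages and myotubes, where it was low at rest, and fell in hepatocytes, where it was highest. In adipocytes Bdh1 stood at 0.952, 1.16 and 0.548 CPM in the controls and at 6.50, 5.11 and 5.38 CPM after butyrate, without overlap between the groups. Those control values rest on 22, 27 and 13 counts, while the antisense gene Gm15743 had 0 to 18 counts a library over the series. The log2 fold change was 2.66 ± 0.16 (SE), a 6.34-fold rise with an adjusted p of 8.106e-15 (edgeR quasi-likelihood test, n = 3 per group, Benjamini-Hochberg over all tested genes). In macrophages the controls held 4.28, 4.53 and 4.93 CPM and the butyrate libraries 15.0, 14.3 and 14.4 CPM. That was a 3.18-fold rise, or 1.67 ± 0.11 on the log2 scale (adjusted p = 5.132e-14 by edgeR). In myotubes Bdh1 went from 1.79, 1.63 and 1.45 CPM to 15.8, 15.2 and 15.4 CPM, a 9.52-fold rise and the largest change of any of the 5 enzymes (log2 3.25 ± 0.13, adjusted p = 1.246e-18). In the 3 myotube butyrate libraries Bdh1 stood at 56.9 to 59.1% of its hepatocyte control level in them, and the hepatocyte marker sum at 0.0843 to 1.52%. The 8 macrophage markers summed to 324, 263 and 125 CPM in the myotube controls and to 18.2, 81.5 and 30.6 CPM after butyrate, none of them at 0 in all 3 libraries of a group, and the part of either marker list in the result was not tested.

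**Figure D1:**
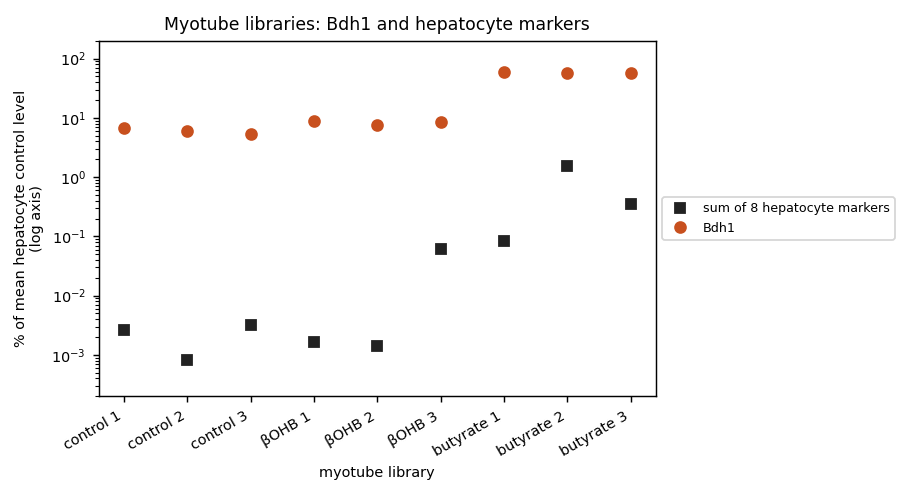
Level of Bdh1 and of the sum of 8 hepatocyte markers in the 9 myotube libraries, each as a percentage of its mean level in hepatocyte controls (log axis). The marker sum runs from 0.0843 to 1.52% over the butyrate libraries, while Bdh1 stays between 56.9 and 59.1%.

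In hepatocytes the direction turned. Bdh1 read 29.4, 25.0 and 25.7 CPM in the controls and 17.9, 17.9 and 19.7 CPM after butyrate, so the groups again did not overlap. The log2 fold change was -0.53 ± 0.10, or 0.693-fold (adjusted p = 1.829e-05). A test for any difference of the butyrate effect between the 4 cell types gave F = 211.8 and an adjusted p of 1.867e-17. Pairwise, the effect in hepatocytes lay below that in adipocytes by 3.19 log2 units (95% confidence interval 2.81 to 3.58), below macrophages by 2.20 (1.90 to 2.50) and below myotubes by 3.78 (3.45 to 4.12). The rise in macrophages was smaller than in adipocytes by 0.99 (0.57 to 1.42, adjusted p = 0.0002912) and than in myotubes, with a macrophage minus myotube difference of -1.58 (-1.95 to -1.22, adjusted p = 2.066e-08). Adipocytes and myotubes differed by -0.59 (-1.06 to -0.11) with an adjusted p of 0.04891. Of all tested genes 41.4, 44.4, 48.4, 36.6, 43.5 and 36.8% were called in these 6 differences, in the order given. That last call was lost with limma-voom, DESeq2, other filters and a replicate block (adjusted p = 0.05047 to 0.1711), and also when adipocyte control 1 or 2, adipocyte butyrate 2 or 3, myotube control 2 or 3 or any myotube butyrate library was left out, with adjusted p-values of 0.05439 to 0.3879. With the rises and the fall together, group means that spanned 30.1-fold across cell types in the controls, from 0.888 CPM in adipocytes to 26.7 CPM in hepatocytes, spanned 3.27-fold under butyrate, from 5.66 to 18.5 CPM. Hepatocytes stayed the highest and adipocytes the lowest in either case.

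βOHB, the substrate of the Bdh1 enzyme, did not move its message past the threshold in any cell type. The nearest was myotubes, with 1.79, 1.63 and 1.45 CPM in the controls and 2.38, 2.04 and 2.30 CPM after βOHB. These groups did not overlap, but the log2 fold change of 0.47 (95% confidence interval 0.12 to 0.81) had an adjusted p of 0.1628 in edgeR, and it stayed above the threshold under all 14 alternative fits or left-out libraries, from 0.208 to 0.4606. The summed macrophage markers of the same libraries were 324, 263 and 125 CPM in the controls and 67.6, 50.1 and 120 CPM after βOHB, and their part in the result was not tested. The intervals allowed a log2 change of -0.64 to 0.32 in adipocytes, -0.42 to 0.10 in macrophages and -0.13 to 0.25 in hepatocytes. At the matched dose and time, butyrate and βOHB differed for Bdh1 in every cell type when compared directly, without the shared controls. Butyrate was higher by 2.83 ± 0.17 log2 units in adipocytes, 1.83 ± 0.11 in macrophages and 2.78 ± 0.12 in myotubes, and lower by 0.59 ± 0.10 in hepatocytes, where the log2 difference was -0.59 (adjusted p = 3.334e-06; the other 3 were at or below 9.894e-15).

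**Figure D2:**
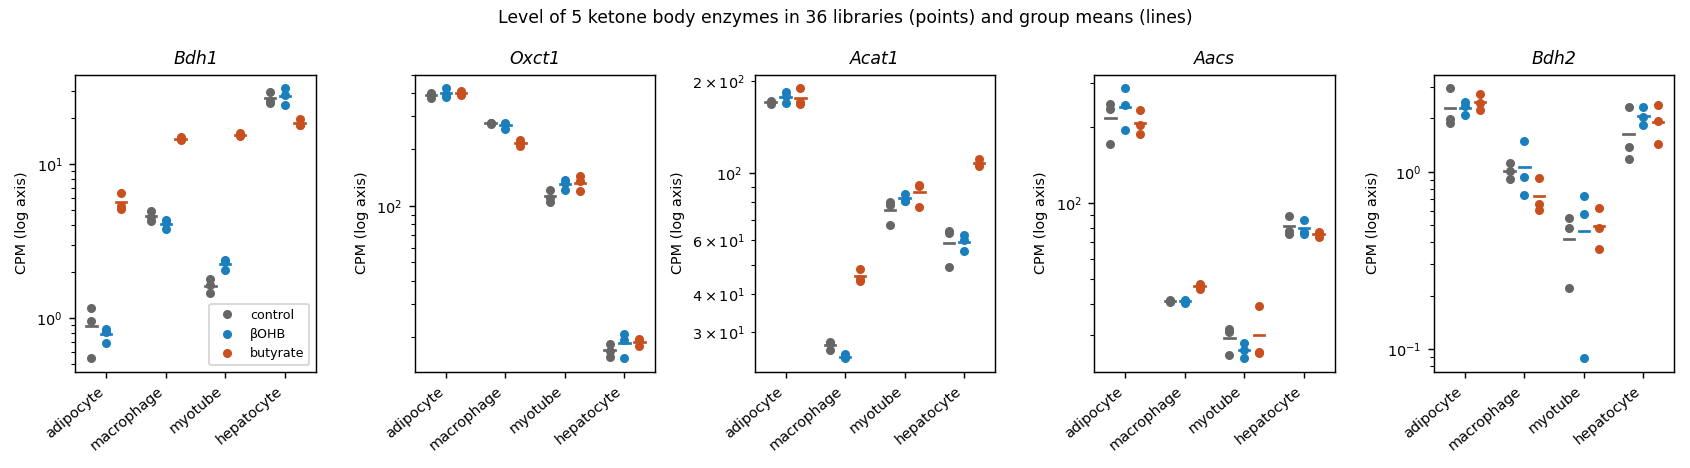
CPM of Bdh1, Oxct1, Acat1, Aacs and Bdh2 (log axes, 1 panel per gene) in the control (grey), βOHB (blue) and butyrate (orange) libraries of the 4 cell types. Points are libraries and lines group means (n = 3). Bdh1 under butyrate sits between 5.11 and 19.7 CPM in all cell types, while its controls run from 0.548 to 29.4 CPM.

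The control levels ordered the cell types in 4 ways, with Aacs and Bdh2 in the same order. Bdh1 followed hepatocytes (26.7 ± 2.36 CPM, SD, n = 3), macrophages (4.58 ± 0.327), myotubes (1.62 ± 0.168) and adipocytes (0.888 ± 0.312). Oxct1 ran nearly the other way, with 389 ± 13.5 CPM in adipocytes, 275 ± 1.80 in macrophages, 113 ± 8.60 in myotubes and 17.0 ± 1.45 in hepatocytes. In those controls 6 fibroblast marker genes summed to means of 8670, 2550, 1780 and 26.3 CPM in the same order. Their part in the Oxct1 levels was not tested. Acat1 was highest in adipocytes (170 ± 1.63 CPM), then myotubes (75.4 ± 6.85), hepatocytes (59.1 ± 8.63) and macrophages (27.3 ± 0.860). Aacs, the lipogenic branch, was also highest in adipocytes (218 ± 39.98 CPM), followed by hepatocytes (80.8 ± 7.21), macrophages (40.9 ± 0.472) and myotubes (29.2 ± 3.65). Bdh2 was low everywhere, with 2.29 ± 0.594 CPM in adipocytes, 1.63 ± 0.617 in hepatocytes, 1.02 ± 0.109 in macrophages and 0.418 ± 0.174 in myotubes. Of the 30 pairwise comparisons of control levels, 28 passed the test, against 77.5, 78.2, 81.1, 82.2, 82.1 and 86.6% of all tested genes in the 6 pairs of cell types. The 2 that did not were Bdh2 in adipocytes against hepatocytes (adjusted p = 0.1355) and in macrophages against hepatocytes (0.06478). The first passed without hepatocyte control 2 (adjusted p = 0.02754) and with library totals alone (0.02777), the second without hepatocyte control 3 (0.03071).

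Between genes, levels were compared per kilobase of exon. Oxct1 led in the controls of adipocytes (105 CPM per kb), macrophages (74.4) and myotubes (30.5), with Aacs and then Acat1 next in adipocytes (56.4 and 45.4) and macrophages (10.6 and 7.26) and Acat1 before Aacs in myotubes (20.1 and 7.58). In hepatocytes Aacs (21.0 CPM per kb) and Acat1 (15.7) came first, and Bdh1 (6.87) stood above Oxct1 (4.60). Hepatocytes were thus the only cell type here in which Bdh1 exceeded Oxct1. Bdh2 was the lowest of the 5 in macrophages, myotubes and hepatocytes (0.239, 0.0983 and 0.384 CPM per kb), and Bdh1 was the lowest in adipocytes (0.228).

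Oxct1, the enzyme that commits acetoacetate to oxidation, responded little. Butyrate lowered it in macrophages, from 273, 277 and 276 CPM in the controls to 223, 214 and 209 CPM. The log2 fold change was -0.35 ± 0.07, or 0.783-fold (adjusted p = 0.000104). Scaling by library totals alone, which shifted the median of all genes in that comparison by 0.202 log2 units, left -0.13 with an adjusted p of 0.142. The fibroblast markers summed to 2640, 2460 and 2540 CPM in the macrophage controls and to 1700, 2380 and 2300 CPM with butyrate. Their part in the Oxct1 change was not tested. In myotubes butyrate raised Oxct1 from 106, 122 and 110 CPM to 135, 144 and 120 CPM, with 1 treated library inside the control range. That rise was 1.18-fold (log2 0.24 ± 0.07, adjusted p = 0.005759), and without myotube butyrate library 2 it was 0.18 with an adjusted p of 0.05232, and with no filter on low counts 0.18 with 0.07679. In adipocytes Oxct1 read 392, 401 and 374 CPM before and 392, 410 and 389 CPM after butyrate, and the interval of the log2 change was -0.12 to 0.18. Hepatocytes had 17.0, 15.6 and 18.5 CPM in the controls and 18.0, 19.6 and 19.3 CPM after butyrate (log2 0.15, -0.03 to 0.34, adjusted p = 0.1461), with a call under library totals alone (0.22, adjusted p = 0.04091). The butyrate effect on Oxct1 differed between cell types (F = 12.14, adjusted p = 6.48e-05), the macrophage value lying below the others. Adipocyte minus macrophage was 0.38 log2 units (0.17 to 0.59), macrophage minus myotube -0.59 (-0.81 to -0.38) and macrophage minus hepatocyte -0.51 (-0.75 to -0.27). The first of these pairs had an adjusted p of 0.07044 with library totals alone. Under either compound Oxct1 stayed over 20-fold higher in adipocytes than in hepatocytes, 20.9-fold with butyrate and 21.6-fold with βOHB.

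βOHB gave Oxct1 a log2 change of 0.21 (0.06 to 0.37) in myotubes, from 106, 122 and 110 CPM to 133, 138 and 121 CPM, with overlapping groups and an adjusted p of 0.1479. Compared directly, butyrate and βOHB did not differ for Oxct1 in myotubes beyond the error (log2 0.03, -0.13 to 0.18), although with library totals alone, which shifted the median of all genes there by 0.196, the difference was 0.22 (adjusted p = 0.01265). In macrophages butyrate was lower than βOHB, with a log2 difference of -0.32 ± 0.07 (adjusted p = 0.0004038), and with library totals alone the difference was -0.09 (adjusted p = 0.3161).

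Acat1, the thiolase of the last step, rose under butyrate in 3 cell types. In hepatocytes it went from 63.6, 64.5 and 49.1 CPM to 111, 107 and 106 CPM, and in macrophages from 27.9, 26.3 and 27.7 CPM to 48.2, 44.8 and 44.3 CPM. Neither pair of groups overlapped. The rises were 1.83-fold in hepatocytes (log2 0.87 ± 0.08, adjusted p = 3.676e-11) and 1.68-fold in macrophages (log2 0.75 ± 0.08, adjusted p = 2.691e-09). In myotubes Acat1 moved from 67.5, 80.0 and 78.7 CPM to 90.3, 91.6 and 77.1 CPM, with overlapping groups. This 1.15-fold change (log2 0.20 ± 0.08, adjusted p = 0.02478) lost its call without myotube control 1 (0.1874), butyrate 1 (0.09536) or butyrate 2 (0.1166), and with no filter on low counts (log2 0.13, 0.2008). In adipocytes, which had the most Acat1, the controls read 172, 171 and 169 CPM and the butyrate libraries 168, 190 and 170 CPM, a log2 change of 0.05 (-0.10 to 0.20). The effect differed between cell types (F = 27.44, adjusted p = 7.02e-08). It was larger in hepatocytes than in adipocytes, with an adipocyte minus hepatocyte difference of -0.82 (-1.04 to -0.60), and than in myotubes, with a myotube minus hepatocyte difference of -0.67 (-0.90 to -0.45). The interval of macrophage minus hepatocyte, -0.13 (-0.36 to 0.11), included 0. βOHB left Acat1 within -0.15 to 0.17 log2 units in hepatocytes and -0.30 to 0.05 in macrophages, and butyrate exceeded βOHB by 0.86 ± 0.08 and 0.87 ± 0.08 there (adjusted p = 4.235e-11 and 1.226e-10).

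Under the same exposure Bdh1 fell and Acat1 rose in hepatocytes, while in macrophages both rose and Oxct1 fell. In the hepatocyte cultures the sum of the 8 macrophage markers went from 296 to 343 CPM down to 137 to 155 CPM and that of 4 endothelial markers from 64.6 to 72.0 CPM down to 19.7 to 23.3 CPM with butyrate, with none of these 12 genes at 0 in all 3 libraries of a group. The macrophage sum was mostly Cd14, which read 206 to 229 CPM before and 35.0 to 39.4 CPM after, and Cd68, which read 82.9 to 105 and 95.3 to 115 CPM, while the other 6 stood at or under 3.56 CPM. Their part in the result was not tested. The hepatocyte marker sum was 45900 to 49300 CPM before and 52800 to 55000 CPM after. In the other cell types each own marker sum was lower with butyrate, at 6710 to 8110 CPM in adipocytes, 11200 to 11800 in macrophages and 16900 to 23400 in myotubes, and its part in their results was not tested either. In the adipocyte cultures the endothelial sum went from 176 to 202 CPM down to 117 to 134 CPM with butyrate. There the macrophage sum went from 342 to 399 CPM down to 295 to 322 CPM. The fibroblast sum was 7850 to 9080 CPM before and 7370 to 9240 CPM after. The part of these sums in the adipocyte results was not tested.

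Aacs did not pass the test in any cell type under either compound. Adipocytes read 172, 246 and 235 CPM in the controls, 194, 244 and 285 CPM with βOHB and 205, 233 and 187 CPM with butyrate, and the 3 groups overlapped. The intervals of the butyrate effect were -0.32 to 0.20 log2 units in adipocytes, -0.25 to 0.34 in myotubes and -0.38 to 0.17 in hepatocytes. In macrophages the levels were tight and separate, 41.4, 40.4 and 41.0 CPM in the controls and 46.9, 47.9 and 45.5 CPM with butyrate. The log2 change of 0.19 had an adjusted p of 0.2268 when all 36 libraries shared the estimate of the spread, 0.000225 (log2 0.23) when only the 9 macrophage libraries were fitted, and 0.01135 (log2 0.42) with library totals alone. Butyrate and βOHB did not differ for Aacs past the threshold in any cell type, with a log2 difference of -0.21 (-0.47 to 0.05) in adipocytes, which passed without adipocyte βOHB library 1 (-0.35, adjusted p = 0.02418), and one of 0.20 (-0.08 to 0.48) in macrophages, which passed when only the macrophage libraries were fitted (0.23, adjusted p = 0.0001808) or with library totals alone (0.42, adjusted p = 0.01023). The adipocyte difference also passed with no filter on low counts (adjusted p = 0.005686), and the myotube one with library totals alone (0.40, adjusted p = 0.01923).

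Bdh2 rested on 2 to 69 counts a library and was not called under either compound. In macrophages it read 1.02, 0.906 and 1.12 CPM in the controls and 0.608, 0.662 and 0.929 CPM with butyrate, a log2 change of -0.47 with an interval of -1.21 to 0.26. The interval was -0.45 to 0.67 in adipocytes, -0.71 to 1.17 in myotubes and -0.40 to 0.89 in hepatocytes. The log2 changes of Bdh1 in adipocytes, macrophages and myotubes (2.66, 1.67 and 3.25) lay above the upper bounds for Bdh2, and no test between the genes was made.

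Counted over the 5 enzymes, butyrate changed 1 in adipocytes, 3 in macrophages, 3 in myotubes and 2 in hepatocytes, where 61, 65, 66.5 and 63.5% of all tested genes were called. No test compared the 5 enzymes with that background. βOHB changed 0 of 5 in each cell type by edgeR, limma-voom or DESeq2. In edgeR 2 of the 20 values had an unadjusted p under 0.05, Bdh1 and Oxct1 in myotubes. Of all 15340 tested genes, 1097 in adipocytes, 358 in macrophages, 2104 in myotubes and 845 in hepatocytes had such a p. The background of genes called under βOHB was 0.00652, 0, 2.91 and 0.00652% of tested genes in the same order. The myotube value, 446 genes, was 175 genes without myotube control 1 and 0 when only the myotube libraries were fitted. The direct comparison of butyrate with βOHB called Bdh1 alone in adipocytes and myotubes, Bdh1, Oxct1 and Acat1 in macrophages, and Bdh1 and Acat1 in hepatocytes (background 59.5, 66, 64.7 and 63.5%). Of the 5 enzymes, 3 had butyrate effects that differed between cell types and 0 had βOHB effects that did, where 74.5 and 0.978% of all genes were called. For βOHB the unadjusted p was 0.0359 for Bdh1, and DESeq2 also called 0.

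**Figure D3:**
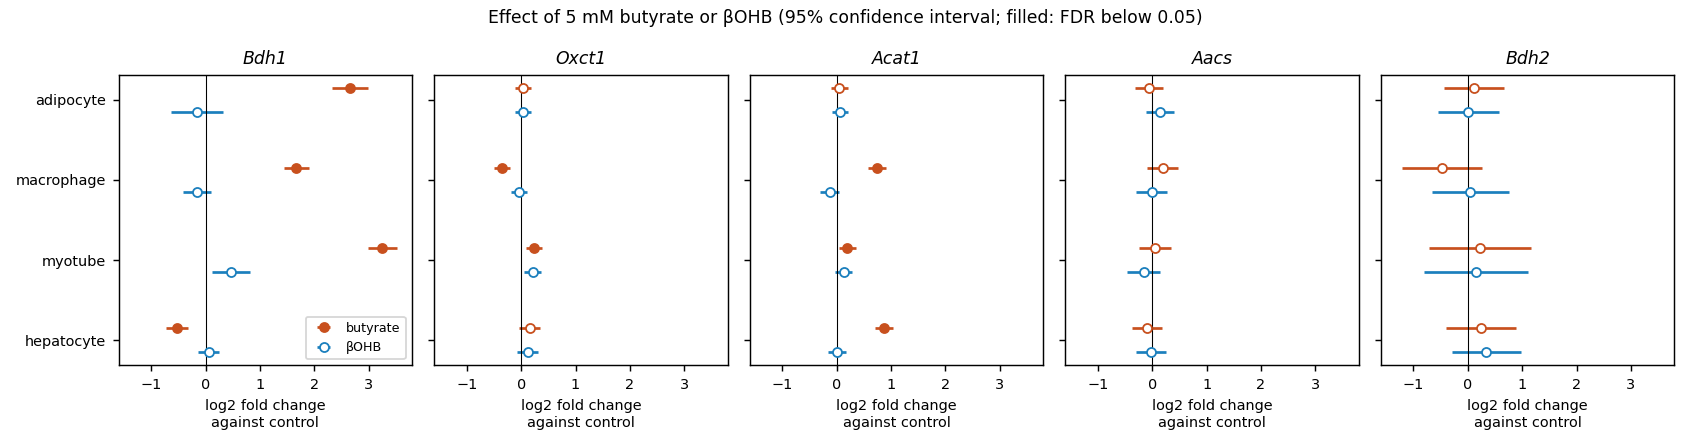
Log2 fold change against control with 95% confidence intervals for butyrate (orange) and βOHB (blue) in the 4 cell types, 1 panel per gene (edgeR, n = 3 per group). Filled points passed the adjusted threshold of 0.05. Bdh1 runs from -0.53 in hepatocytes to 3.25 in myotubes under butyrate, and every βOHB point is open.

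Hmgcs1, the cytosolic synthase of the sterol pathway, fell under butyrate in macrophages (log2 -0.78, adjusted p = 3.909e-10) and hepatocytes (-0.36, 0.0001236), and gave 0.15 in myotubes and -0.17 in adipocytes with adjusted p-values of 0.09726 and 0.05903. Acat2 and Acat3, thiolases of near-identical sequence whose reads may be shared between them, fell in hepatocytes (-0.56 and -0.996), opposite to Acat1. Acat2 rose in adipocytes (0.40) and macrophages (0.31), and Acat3 also rose there (0.73 and 2.82). In macrophages Acat3 had 0 to 3 counts a library in the controls and 12, 16 and 13 with butyrate, all under 1 CPM. The size of a change over so low a control is poorly determined. In myotubes Acat3 had 7, 40 and 17 counts after butyrate, 0.153, 0.867 and 0.407% of its hepatocyte level. The span of the Acat3 gene also overlaps that of Tcp1 on the other strand. The germline forms Oxct2a and Oxct2b were too low to be tested, with 0 to 13 counts a library.

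Genes around the 5 enzymes were described from lists by role, of which some members are named above. The comparisons of butyrate and of βOHB with control share the control libraries. Of 16 tested ketone body partners, butyrate raised 7 and lowered 3 in adipocytes, raised 9 and lowered 1 in macrophages and in myotubes, and raised 6 and lowered 4 in hepatocytes. In the same order 30.7, 31.9, 33.1 and 31% of all genes rose and 30.3, 33.2, 33.4 and 32.4% fell. The median log2 change of the partners was 0.19, 0.61, 0.36 and -0.10, against 0.00, 0.00, 0.00 and -0.01 over all genes. Hadh, the short-chain 3-hydroxyacyl-CoA dehydrogenase of fatty acid oxidation, rose in all 4 cell types (log2 0.41, 0.86, 0.63 and 1.02 in adipocytes, macrophages, myotubes and hepatocytes). Hadhb, the thiolase subunit of the mitochondrial trifunctional protein, rose in macrophages (0.97), myotubes (0.43) and hepatocytes (1.13). Without the partners that, like Acat3, lay under 2% of their hepatocyte level in the myotube butyrate libraries, 7 of 14 rose in myotubes.

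The shares and medians over all genes given above apply to each list below. The 10 succinyl-CoA genes supply or consume the CoA donor of the Oxct1 reaction. All 10 changed under butyrate in macrophages (4 up, 6 down) and hepatocytes (7 up, 3 down), 4 changed in myotubes (3 up, 1 down) and 2 in adipocytes (1 up, 1 down), where 65, 63.5, 66.5 and 61% of all tested genes were called. Their median log2 changes in adipocytes, macrophages, myotubes and hepatocytes were -0.01, -0.24, -0.04 and 0.20. The subunits of propionyl-CoA carboxylase moved apart, Pcca up and Pccb down, in macrophages (log2 0.58 and -1.10), myotubes (0.62 and -0.33) and hepatocytes (0.80 and -0.65). Suclg1, the shared subunit of succinyl-CoA synthetase, rose in the same 3 cell types (0.43, 0.31 and 0.50).

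A list of 25 genes for ketogenic amino acid breakdown also held Acad8, Hibch, Hibadh and Aldh6a1 of valine breakdown and the kinase Bckdk. Of its genes, 7 rose and 3 fell in adipocytes, 11 and 5 in macrophages, 14 and 5 in myotubes and 12 and 7 in hepatocytes. The median log2 changes were 0.09, 0.09, 0.41 and 0.38. Without Tat, Hpd, Hgd and Aadat, which lay under 2% of their hepatocyte level in the myotube butyrate libraries, 11 of 21 rose in myotubes and the median was 0.26. Tat read 0 CPM in every adipocyte and macrophage library and stayed among the genes counted in those cell types. Ppm1k, the phosphatase that activates branched-chain ketoacid dehydrogenase, rose in all 4 (log2 1.197, 1.13, 2.02 and 1.73 in adipocytes, macrophages, myotubes and hepatocytes). Auh, an enzyme of leucine breakdown, also rose in all 4 (0.56, 0.75, 0.76 and 0.94). Bckdhb, a subunit of that dehydrogenase, rose in all 4 (0.23, 0.75, 1.39 and 1.12). Bcat1, the cytosolic branched-chain aminotransferase, fell by 1.91 in adipocytes, by 1.40 in macrophages and by 0.41 in myotubes on the log2 scale. In myotubes Bcat1 read 14.7, 13.6 and 15.0 CPM in the controls and 9.13, 8.04 and 15.6 CPM with butyrate, so that butyrate library 3, which stood apart, lay above every control.

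The 16 genes of cytosolic acetyl-CoA, sterol and fatty acid synthesis, the setting of Aacs, counted 6 up and 4 down in adipocytes, 4 and 7 in macrophages, 8 and 3 in myotubes and 9 and 5 in hepatocytes (median 0.05, -0.09, 0.33 and 0.46). Myotube butyrate library 3 lay above its fellows for some of these genes, named after their values were seen. In libraries 1, 2 and 3 Acly, the ATP citrate lyase, read 137.4, 137.5 and 233.7 CPM. Fasn, the fatty acid synthase, read 90.8, 84.7 and 176 CPM, and Aacs 25.5, 25.8 and 39.1 CPM. For Acss2 (55.1, 53.9 and 51.8 CPM) and Srebf1 (66.2, 63.6 and 59.3 CPM) that library was instead the lowest of the 3. Without that library the list genes called under butyrate, over all lists and cell types, numbered 193, as with it, and its part in the myotube count alone was not tested. Acss2, which like Aacs activates a free acid in the cytosol, rose in all 4 (log2 0.55, 2.66, 0.91 and 1.49), whereas Aacs did not pass the test. The transcription factor gene Srebf1 fell in adipocytes (-0.70) and macrophages (-0.71) and rose in myotubes (0.36) and hepatocytes (0.93). Of 10 genes of siderophore and iron handling, listed for Bdh2, 4 rose and 1 fell in adipocytes, 3 and 3 in macrophages, 4 and 1 in myotubes and 4 and 2 in hepatocytes (median 0.18, -0.19, 0.24 and 0.28). Without Lcn2, which lay under 2% of its hepatocyte level in the myotube butyrate libraries, 3 of 9 rose in myotubes (median 0.20). Slc22a17, a receptor for the siderophore carrier lipocalin, rose in adipocytes (0.83) and macrophages (1.95). Lcn2, that carrier, had 0 counts in myotube controls and 4.83, 80.4 and 19.1 CPM after butyrate, beside the marker sums given above for those libraries. Aco1, the cytosolic iron-sensing aconitase, rose in all 4 (0.29, 0.40, 0.28 and 0.41). Under βOHB 0 of the list genes passed the test in edgeR in any cell type.

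**Figure D4:**
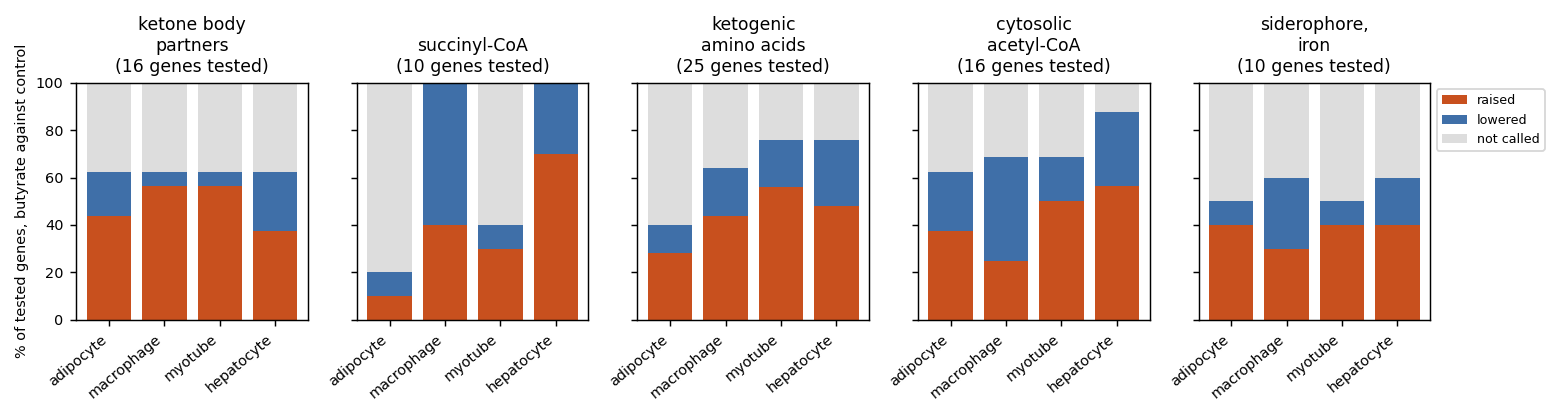
Share of tested genes in 5 lists (1 panel each, number tested in the title) that rose (orange), fell (blue) or did not pass the test (grey) under butyrate in each cell type. The succinyl-CoA bars are filled in macrophages and hepatocytes (10 of 10 genes called), against 2 of 10 in adipocytes.

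The genes whose log2 CPM followed each enzyme most closely over the 36 libraries were ranked by Pearson's r among all tested genes. For Bdh1 these were Hook2 (r = 0.962), Arhgef3 (0.943) and Cep164 (0.943). Oxct1 was followed by Aebp1 (0.991), Postn (0.990) and P4ha3 (0.988), Acat1 by Prr5 (0.980), Elovl3 (0.978) and Hadhb (0.972), and Aacs by Fcgrt (0.985), Dlc1 (0.980) and Retsat (0.980). Bdh2 had the weakest leaders, Agmo (0.914), Tmbim6 (0.903) and Tie1 (0.899). The libraries fall into 4 cell types, so shared differences between cell types enter these values, and the part of treatment in them was not separated. With 12 group means in place of libraries, 11 of the 15 genes were again among the leading 3.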

How the data were processed

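RNA of 36 cultures was sequenced in pairs of 150 bases (BGISEQ-500) after random priming. The authors mapped the reads with Salmon 1.2.1 to GENCODE M25 transcripts (GRCm38.p6) and imported them with tximport. The methods describe the deposited estimated counts per gene as scaled for transcript length and library size, although 55.6% of values above 0 were whole. They were rounded here. Gene names and positions came from GENCODE M21, which matched 54094 of 54347 identifiers. The filter on low values asked for 6 libraries over 1 CPM. All 36 libraries entered 1 edgeR (4.0.16) quasi-likelihood fit with TMM scaling and 12 group means, run in R 4.3.3 and tested on simulated data, with Benjamini-Hochberg adjustment over 15340 genes and a threshold of 0.05. The study used limma, which with DESeq2 (1.42.0) served as an alternative (limma-voom, 3.58.1). The other alternatives were scaling, filters, a replicate block, fits within a cell type and leaving out each library. With 3 libraries a group an exact permutation test cannot go below p = 0.1, so model-based tests were used. Named genes were the 5 members, a fixed set of partners (some are not reported here), the leading 3 by correlation, and list genes among the 4 of smallest p in at least 1 cell type. The enzymes and lists were chosen with earlier results of these data known, and the count of list genes in myotubes without those under 2% of their hepatocyte level was added after seeing the data. Pairing by replicate number was not shown: deviations of same-numbered libraries correlated above 0.1 in 2, 0, 2 and 0 of 9 pairs per cell type. With 3 libraries a group this check cannot exclude pairing. Intervals cover the spread between libraries.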

Additional observations from a re-analysis of the deposited data

Results flagged for a closer look

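For 3 of the 5 enzymes the butyrate effect differed between the 4 cell types, by an edgeR test of the difference itself. For Bdh1 the adjusted p was 1.867e-17, with log2 changes of 2.66 in adipocytes, 1.67 in macrophages, 3.25 in myotubes and -0.53 in hepatocytes, and all 3 libraries of each butyrate group lay on the same side of their controls. For Acat1 it was 7.02e-08, with changes of 0.05, 0.75, 0.20 and 0.87 in the same order. For Oxct1 it was 6.48e-05, with changes of 0.03, -0.35, 0.24 and 0.15. Of all tested genes 74.5% passed this test.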

How the results depend on the processing

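The 9 calls of the enzymes under butyrate were 7 to 9 when 1 library was left out, the 7 calls of butyrate against βOHB were 7 to 8, the 28 calls of control levels were 28 to 29, and the 193 calls of list genes under butyrate were 186 to 196. The counts under βOHB stayed at 0 for enzymes and list genes, and the counts of enzymes whose effects differed between cell types stayed at 3 for butyrate and 0 for βOHB. List genes called under βOHB were 1 with DESeq2 (Lcn2 in myotubes) and 3 without a filter on low counts (Hmox1 in adipocytes, Lcn2 and Ftl1 in myotubes). Lcn2 had 3.19 CPM in myotube βOHB library 3, beside a hepatocyte marker sum of 0.0624% of the hepatocyte control level, and at most 0.0888 CPM in the other 2, and the part of that signal was not tested. Bdh1 kept its butyrate calls in all 4 cell types under each alternative run. No result changed direction past the threshold. Scaling by library totals alone lost the calls of Oxct1 in macrophages (against control and against βOHB) and of its adipocyte minus macrophage difference. It gained Aacs in macrophages (against control and against βOHB), Oxct1 in hepatocytes, Bdh2 between adipocyte and hepatocyte controls and, for butyrate against βOHB in myotubes, Oxct1, Acat1 and Aacs (log2 0.22, 0.26 and 0.40). When low genes were kept, Oxct1 and Acat1 lost their butyrate calls in myotubes (0.07679 and 0.2008), and Aacs was gained for butyrate against βOHB in adipocytes (0.005686). That scaling raised the share of higher calls among all genes from 49 to 66.7% in macrophages and from 49.8 to 61.8% in myotubes. The pairing of libraries by replicate number was not shown, and a fit with the replicate block moved 1 call, the difference of the Bdh1 effect between adipocytes and myotubes (adjusted p = 0.07274, also lost with limma-voom, 0.1537, DESeq2, 0.06828, no filter, 0.1711, and filterByExpr, 0.05047). The block could not be fitted for control levels between cell types. Over all genes, calls under βOHB in myotubes were 446, 895 without a filter, 0 within myotube libraries alone, and 175, 287, 255 and 214 without control 1, control 2, βOHB 1 and βOHB 2. In adipocytes they were 1, and 192 without a filter, and in macrophages 0 and 35. In hepatocytes they were 1, with 48 without a filter and 29 without βOHB library 2. The causes of these changes were not tested. Depth limits Bdh2 most, at 2 to 69 counts a library.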
